A study of Mus musculus with 4 samples.

Results

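This account covers 10 genes of the lysosomal protease system, of 52636 genes counted in the series: the cathepsins Ctss, Ctsl, Ctsb, Ctsc, Ctsz, Ctsw and Ctsd, the asparaginyl endopeptidase legumain (Lgmn), the cathepsin inhibitor cystatin C (Cst3) and the lysosomal membrane glycoprotein Lamp1. They were taken by symbol, and all 10 matched a gene ID of the count tables. They were selected on their read counts in these same libraries, scaled to library totals, so their levels and their difference between genotypes are given as descriptions, without a test. RNA was sequenced from regulatory T cells sorted as CD4+CD62L+CD25bright from C57BL/6 mice 7 weeks old, with 2 libraries per genotype, replicates 2 and 3 of each. The first genotype is Vav1R63W, a knock-in allele of Vav1, which relays T cell receptor signals. The second is Vav1R63WThemis1-T-/-, which carries the same knock-in and also lacks Themis1 in T cells. Neither group is thus without the knock-in, and the labels do not say whether both copies of Vav1 carry it. The series title links Themis1 to the phosphatase SHP-1 and to suppression by regulatory T cells. The Cre line behind the T cell deletion is not given in the sources used here, nor is whether replicates came from separate animals, and p-values then measure only the spread between these libraries, which may be technical.

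Cathepsins are made as inactive precursors, delivered to acidic endosomes and lysosomes, and cut there into active enzymes. Most of those described here are papain-like cysteine proteases, which cystatins block, whereas cathepsin D is an aspartic protease. In lymphocytes they degrade endocytosed proteins, process the granzymes of cytotoxic granules and, in antigen-presenting cells, trim the invariant chain of MHC class II.

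Before the genes themselves, the labels were checked against Themis, the targeted gene (ENSMUSG00000049109). It had 283 and 97 reads in Vav1R63W replicates 2 and 3. Of the pair labelled Themis1-deleted, replicate 2 had 685 reads, more than either Vav1R63W library. Replicate 3 had 0, which allows up to 3 by counting error alone. Gene-level counts thus go against the label of that replicate 2, as far as the reads fall in the part of the gene that was deleted, which the labels do not name. Each direction below is between labels, and fold changes of the 10 genes are also given without that library. Reads assigned to genes ranged from 13963670 to 15953194 per library. Levels are given in CPM, the counts-per-million level, which is the reads of a gene scaled to the total of reads assigned to genes. Themis had a mean of 17.5 CPM over the 4 libraries. Of the 3159 tested genes at 5 to 25 CPM, 43.6% differed at least 10-fold between the libraries of a group. Its counts therefore settle neither label. Foxp3, the lineage factor of regulatory T cells, was at 904 and 636 CPM in Vav1R63W replicates 2 and 3. It was at 1014 and 737 CPM in the pair labelled Themis1-deleted.

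Many lysosome genes carry the letters CACGTG near their start, the core of the element bound by TFEB, a transcription factor of lysosome genes. The RefSeq promoter table (GRCm38.p6) held 8 of the 10 genes, in 9 windows, and not Ctsb or Ctsw. CACGTG, which reads the same on both strands, was searched in the 250 bases before each start. It was found for 4 of the 8 genes (Lamp1, Ctsd, Ctsl and Lgmn), and 6.86% of the 27025 genes in the table hold it in at least 1 window. The longer TCACGTGA, which contains it, was found for Ctsd and in 0.907% of genes. Lamp1 holds 4 copies, and 5 genes of the table, itself included, hold 4 or more (0.0213% of 32851 windows). The stretches are printed 5′ to 3′ on the strand of the gene with CACGTG in capitals, because they are what sets these promoters apart from those of Ctss, Cst3, Ctsc and Ctsz, whose windows hold no copy. A match describes the letters and not binding.
Lamp1, chr8:13159095-13159160, plus strand: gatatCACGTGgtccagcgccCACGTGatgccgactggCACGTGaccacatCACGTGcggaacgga
Ctsd, chr7:142387908-142387937, minus strand: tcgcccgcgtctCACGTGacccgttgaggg
Ctsl, chr13:64370739-64370768, minus strand: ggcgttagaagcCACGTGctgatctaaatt
Lgmn, chr12:102439124-102439153, minus strand: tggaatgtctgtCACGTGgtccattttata
The Lgmn site lies 49 bases before one of its 2 RefSeq starts, and the window of the other start holds no copy. The Ctsd, Ctsl and Lgmn stretches lie before a RefSeq start but inside the gene spans given below. Ctsd holds a second copy 245 bases before its start.

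All 10 genes had reads in every library, and 8 of them were at 139 CPM or more throughout, while Ctsl and Lgmn were far lower. Summed over the 10 genes, the libraries held 2665 and 2732 CPM in Vav1R63W replicates 2 and 3, against 2839 and 2790 CPM in the pair labelled Themis1-deleted, replicates 2 and 3. The sum therefore varied little between libraries, and the differences lay in single genes. In bulk RNA, fewer cells of a type and less RNA per cell cannot be told apart.

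**Figure D1:**
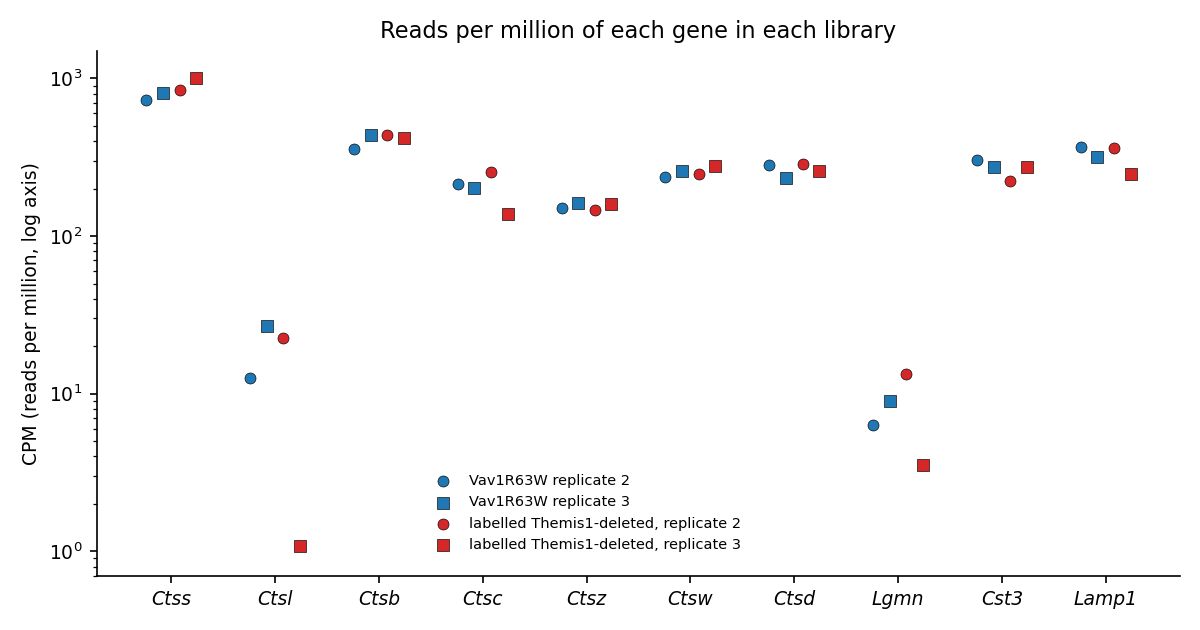
Level in CPM (log axis) of each of the 10 genes in each of the 4 libraries, coloured by labelled genotype and shaped by replicate number. Ctsl and Lgmn stand below the other 8 genes. The library labelled Themis1-deleted, replicate 3, is the lowest point for Ctsl (1.07 CPM), Lgmn, Ctsc and Lamp1 and the highest for Ctss and Ctsw.

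Of the endopeptidases, cathepsin S (Ctss, ENSMUSG00000038642, GRCm38 chromosome 3, 95526786 to 95556403, plus strand) trims the invariant chain in B cells and dendritic cells and stays active at neutral pH. Ctss was at 735 and 805 CPM in Vav1R63W replicates 2 and 3 and at 840 and 1003 CPM in the pair labelled Themis1-deleted. Both libraries labelled Themis1-deleted lay above both Vav1R63W libraries. Group means were 770 ± 50.1 and 921 ± 115 CPM (SD, n = 2 each), and edgeR gave a log2 fold change of 0.29 ± 0.16 (SE). The fold change was 0.42 on the log2 scale with replicate 2 of the pair labelled Themis1-deleted left out, and 0.12 without replicate 3. Groups that do not overlap, with the libraries labelled Themis1-deleted higher, were found for 15.1% of the 10216 tested genes, and lower for 18.7%, and nothing is read from the position of Ctss. In either direction the groups of 2 of the 10 genes, Ctss and Cst3, did not overlap, as for 33.8% of tested genes, and with TMM scaling (edgeR's correction of library totals) those of Ctss alone, again beside 33.8%. Counting error on the Ctss reads was at most 0.986% of the count in any library, below the gap between libraries of a group.

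Ctss took a larger share of the cathepsin reads in a single library. Of the reads of the 7 cathepsins, Ctss held 37.0% (95% Wilson interval 36.4 to 37.6) and 37.8% (37.3 to 38.4) in Vav1R63W replicates 2 and 3. In the libraries labelled Themis1-deleted it held 37.5% (37.0 to 38.1) in replicate 2 and 44.3% (43.7 to 44.8) in replicate 3. The genotypes thus differed in this share through replicate 3 alone, and the intervals cover counting error only, since PCR copies are not independent molecules.

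Cathepsin L (Ctsl, ENSMUSG00000021477, chromosome 13, 64359337 to 64370890, minus strand) is the endopeptidase that trims the invariant chain in thymic epithelium and is also made by activated T cells. It had 177 and 387 reads in Vav1R63W replicates 2 and 3, against 359 and 15 in the pair labelled Themis1-deleted, or 12.6, 26.9, 22.5 and 1.07 CPM. The last library was the lowest of the 4. The exact Poisson interval of its 15 reads was 8.40 to 24.7 reads at 95%, which covers counting error only and not the spread between libraries. The log2 fold change was -0.75 ± 1.71 (SE, edgeR), and it was -4.15 with replicate 2 of the pair labelled Themis1-deleted left out, and 0.18 without replicate 3. A gap of at least 10-fold between the libraries of a group, computed on CPM + 0.5, was found for 43.6% of the 3159 tested genes at a mean of 5 to 25 CPM, the range that holds Ctsl. It was found for 0.0499% of the 2005 tested genes at 100 CPM or more. The exons of Ctsl share 395 bases with a processed pseudogene, Gm49230, at which the files list 0 reads.

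Cathepsin B (Ctsb, ENSMUSG00000021939, chromosome 14, 63122462 to 63145923, plus strand) cuts both inside proteins and from their carboxyl ends. It was at 357 and 440 CPM in Vav1R63W replicates 2 and 3 and at 436 and 422 CPM in the pair labelled Themis1-deleted. The groups overlapped, and Vav1R63W replicate 2 was the low library. The fitted log2 change was 0.13 ± 0.18 (SE, edgeR), with -0.04 when Vav1R63W replicate 2 was left out and 0.31 when Vav1R63W replicate 3 was. It was 0.13 with replicate 2 of the pair labelled Themis1-deleted left out.

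Among the exopeptidases, cathepsin C (Ctsc, ENSMUSG00000030560, chromosome 7, 88278085 to 88310888, plus strand) removes the dipeptides that keep granzymes inactive. Ctsc was at 214 and 202 CPM in Vav1R63W replicates 2 and 3, and at 255 and 139 CPM in the pair labelled Themis1-deleted. The libraries labelled Themis1-deleted were thus the highest and the lowest of the 4. Their SD was 82.2 CPM against 8.27 CPM in Vav1R63W cells (n = 2 each). The log2 fold change was -0.06 ± 0.33 (SE, edgeR), -0.54 with replicate 2 of the pair labelled Themis1-deleted left out, and 0.29 without replicate 3.

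Cathepsin Z (Ctsz, ENSMUSG00000016256, chromosome 2, 174427493 to 174439039, minus strand), a carboxypeptidase, was at 150 and 163 CPM in Vav1R63W replicates 2 and 3 and at 147 and 161 CPM in the pair labelled Themis1-deleted. Its groups overlapped almost fully. The fitted log2 change was -0.0019 ± 0.23 (SE, edgeR), and 0.08 with replicate 2 of the pair labelled Themis1-deleted left out. Of all tested genes, whatever their level, 97.5% had a larger gap between the libraries of a group than Ctsz. Such gaps depend on level: 10-fold gaps were found for 43.6% of tested genes at 5 to 25 CPM. They were found for 0.0499% of those at 100 CPM or more, and the share among genes at the level of Ctsz was not computed.

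Cathepsin W (Ctsw, ENSMUSG00000024910, chromosome 19, 5465043 to 5468507, minus strand) is a papain-like protease known from NK cells and cytotoxic T cells, where it stays largely in the endoplasmic reticulum. It was at 236 and 259 CPM in Vav1R63W replicates 2 and 3 and at 248 and 280 CPM in the pair labelled Themis1-deleted. The groups overlapped, with a log2 fold change of 0.12 ± 0.19 (SE, edgeR). With replicate 3 of the pair labelled Themis1-deleted left out, it was -0.0044, and without replicate 2 it was 0.22. Markers of NK and CD8 T cells summed to 178 and 231 CPM in Vav1R63W replicates 2 and 3 and to 200 and 179 CPM in the pair labelled Themis1-deleted. Of those 11 markers, Cd8a, Klrb1c, Ncr1 and Gzmk had 0 reads in all 4 libraries, while Nkg7, a granule membrane protein, was at 119 to 160 CPM. Cd8b1, the other CD8 chain, was at 26.1 and 38.5 CPM in Vav1R63W replicates 2 and 3 and at 30.3 and 19.3 CPM in the pair labelled Themis1-deleted, and the part of such cells in the Ctsw values was not tested.

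The aspartic protease cathepsin D (Ctsd, ENSMUSG00000007891, chromosome 7, 142375911 to 142388038, minus strand) degrades proteins in bulk and activates other lysosomal precursors. It was at 281 and 232 CPM in Vav1R63W replicates 2 and 3 and at 289 and 259 CPM in the pair labelled Themis1-deleted. The groups overlapped, and replicate 2 was the higher library of each genotype. The log2 fold change was 0.12 ± 0.18 (SE, edgeR), 0.06 with replicate 2 of the pair labelled Themis1-deleted left out, and 0.0060 without Vav1R63W replicate 3.

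Legumain (Lgmn, ENSMUSG00000021190, chromosome 12, 102394084 to 102439813, minus strand) cuts after asparagine, converts cathepsin precursors to their 2-chain forms and has been described as a protease of Foxp3. It had 89 and 129 reads in Vav1R63W replicates 2 and 3, against 214 and 49 in the pair labelled Themis1-deleted, or 6.36, 8.96, 13.4 and 3.51 CPM. As for Ctsc, the libraries labelled Themis1-deleted were the highest and the lowest. The fitted log2 change was 0.15 ± 1.57 (SE, edgeR), -1.08 with replicate 2 of the pair labelled Themis1-deleted left out, and 0.80 without replicate 3.

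Cystatin C (Cst3, ENSMUSG00000027447, chromosome 2, 148871722 to 148875692, minus strand) is a secreted inhibitor that binds papain-like cathepsins and, through another site, legumain. It was at 303 and 276.4 CPM in Vav1R63W replicates 2 and 3 and at 224 and 275.9 CPM in the pair labelled Themis1-deleted. By this scaling the pair labelled Themis1-deleted lay below the Vav1R63W pair, with replicates 3 nearly equal, and the groups overlapped with TMM scaling (296, 278, 222 and 283 CPM). The log2 fold change was -0.18 ± 0.20 (SE, edgeR), -0.03 with replicate 2 of the pair labelled Themis1-deleted left out, and -0.37 without replicate 3. The reads of Ctss divided by those of Cst3, a ratio within a library that no scaling alters, was 2.42 and 2.91 in Vav1R63W replicates 2 and 3, against 3.75 and 3.63 in the pair labelled Themis1-deleted. That ratio was higher in both libraries labelled Themis1-deleted, and it was picked after its values were seen.

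Lamp1 (ENSMUSG00000031447, chromosome 8, 13159161 to 13175338, plus strand), a glycoprotein that lines the lysosomal membrane and appears on the surface of cells that release granules, was at 369 and 317 CPM in Vav1R63W replicates 2 and 3. The libraries labelled Themis1-deleted were at 364 and 247 CPM. Replicate 2 was the higher library in both genotypes, and the groups overlapped. The fitted log2 change was -0.14 ± 0.23 (SE, edgeR), -0.43 with replicate 2 of the pair labelled Themis1-deleted left out, and 0.08 without replicate 3. The 3′ neighbour Grtp1 lies on the other strand and shares 249 bases of exon with Lamp1. The unstranded counts leave out reads that 2 genes could claim, and for Lamp1 they held 70.9% to 74.8% of the reads found in the first and second strand columns together. Across tested genes the median of that share was 100%, and 11.1% of genes were under 80%. The Lamp1 levels given here lack those reads, and its log2 fold change was -0.13 in the strand column with more reads. Grtp1 itself had 0 and 6 reads in Vav1R63W replicates 2 and 3, against 14 and 242 in the other pair. For the other 9 genes the share was at least 99.1% in every library. That share cannot show reads lost to a gene on the same strand, which are missing from the strand columns too. The levels of Ctsd and Ctsl, which overlap Gm49369 and Gm49230 on the same strand, may therefore lack such reads. Exons of Ctsb share 774 bases with Fdft1 on the opposite strand, those of Ctsd 808 bases with Gm49369 on the same strand, and those of Ctsl 1742 bases with the antisense gene Gm47123. Gm49369 and Gm47123 are listed at 0 reads, which need not mean that they are silent, since reads in shared exons count for neither gene. Without strand, reads of partners on the opposite strand cannot be told apart. Those of Gm49369 in the shared bases could not be told apart with strand either.

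**Figure D2:**
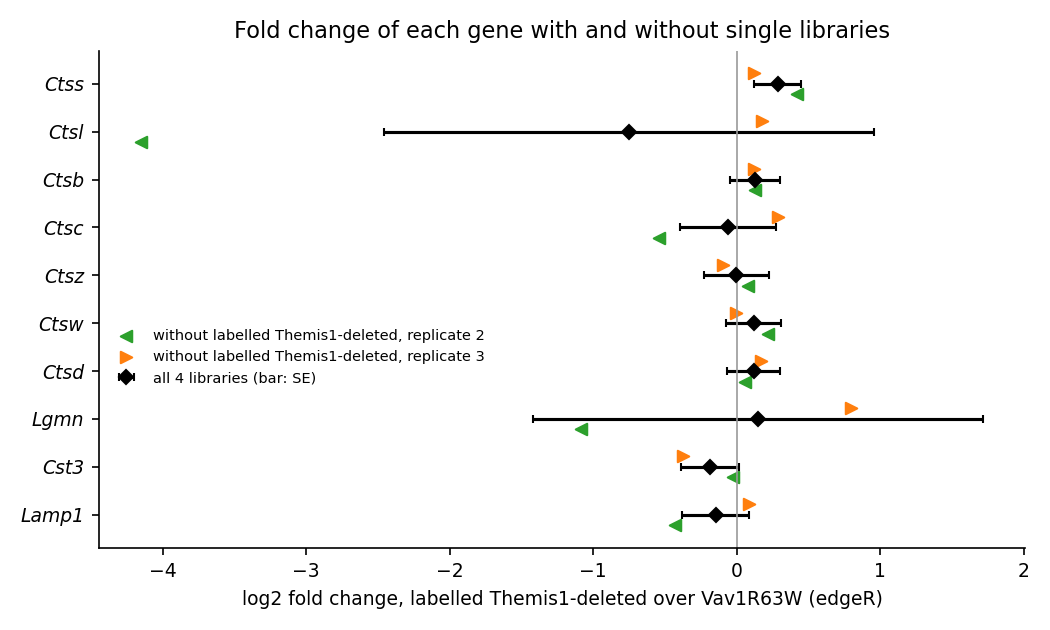
The edgeR log2 fold change of each gene, libraries labelled Themis1-deleted over Vav1R63W, with all 4 libraries (diamond, bar of 1 SE) and without either library labelled Themis1-deleted (triangles). Ctss, Ctsb and Ctsd stay to the right of 0 and Cst3 to the left in all 3 fits. Ctsl, Ctsc, Lgmn and Lamp1 lie left of 0 without replicate 2 and right of 0 without replicate 3.

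The edgeR quasi-likelihood test with Benjamini-Hochberg adjustment called 0 of these 10 genes and 0 of all 10216 tested genes (0.0%), of which 509 (4.98%) had an unadjusted p under 0.05 and none was among the 10. limma-voom also called 0 of the 10, and DESeq2 called 0 of the 10 with 206 calls among 10748 genes (1.92%). The authors' deposited table called 123 of 7865 genes (1.56%), and 0 of the 10. In the authors' deposited table Ctss had the smallest adjusted p of the group, 0.558, with a log2 fold change of 0.277. The contrast is the one in which the genes were picked, so these counts are stated beside their background only.

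Levels of different genes can be compared only per length, and for this each CPM was divided by the kilobases of the union of the gene's exons in GENCODE M21. On this scale, CPM per kilobase, Ctss was highest at 623 ± 83.5 (SD over 4 libraries), with a lowest library of 541 that lay above every library of the other 9 genes. Cst3, the inhibitor, was next at 213 ± 26.2, and its 4 libraries, 177 to 239, overlapped none of the genes on either side. Ctsw (136 ± 9.90), Lamp1 (121 ± 21.2), Ctsd (113 ± 10.9) and Ctsz (108 ± 5.47) followed, and within these 4 genes each overlapped the next in range. Ctsb (68.4 ± 6.42) and Ctsc (34.9 ± 8.29) each stood apart from the gene below and above. Ctsb was the next highest after Ctss in CPM and only the seventh per length, because its annotated exons span 6.051 kb against 1.266 kb for Cst3. Lgmn (3.47 ± 1.81) and Ctsl (2.43 ± 1.77) closed the order with overlapping ranges. Ranks were the same with the longest transcript in place of the exon union. The place of Lamp1 rests on unstranded counts, which lack the reads that 2 genes could claim. In the strand column with more reads its mean was 405 CPM against 324 here, while Ctsw was at 247 against 256. Cst3 was at 245 against 270. The order and the gap below Cst3 were not redone on that column, and Lamp1 may stand higher. A union that includes exons not used in these cells lowers the value, so the order depends on the annotation.

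**Figure D3:**
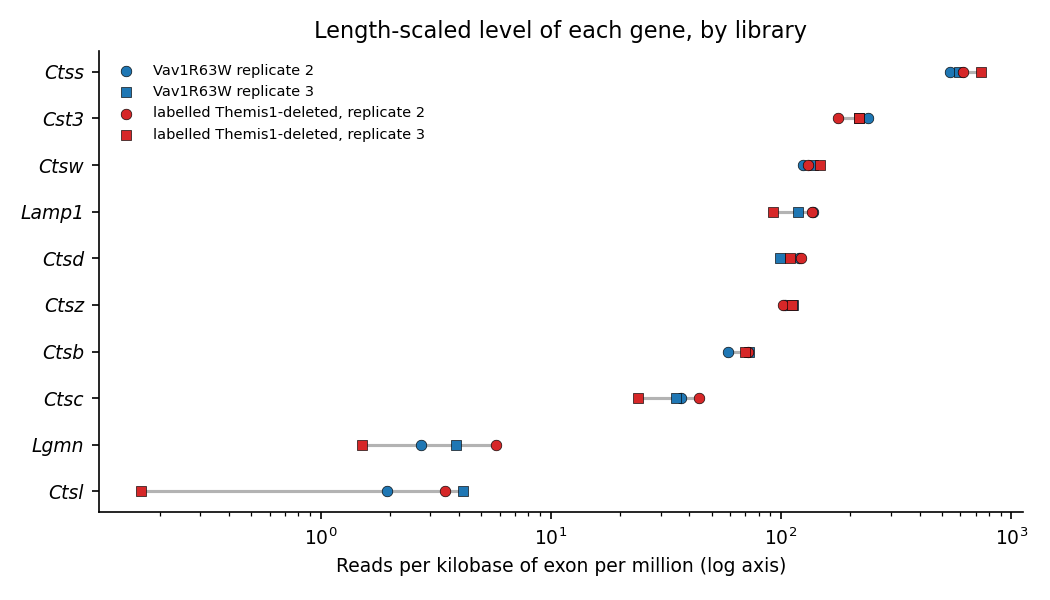
CPM per kilobase of exon (log axis) for the 10 genes, ordered by their mean, with a point for each of the 4 libraries and a grey line over their range. Ctss (623) and Cst3 (213) stand above the rest, and Lgmn and Ctsl lie at 3.47 and 2.43 with the widest ranges on this axis.

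Genes whose libraries followed Ctss most closely were sought among 1921 protein-coding genes outside the lists used here, with a mean level of 100 CPM or more. The measure was the root mean square distance of centred log2 values over the 4 libraries. Eif5a (0.02) and Arhgdia (0.02) were the nearest, against a median distance of 0.28. For Ctsb they were Rnf220 (0.02), Uqcrb (0.02) and Ubxn1 (0.03), against a median of 0.26. With 4 libraries such likeness is a description of these libraries only.

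Because Ctss and Cst3 are abundant in myeloid cells and Ctss in B cells too, the markers of other cells are given beside them. Of 16 monocyte and macrophage markers, 12 had 0 reads in all libraries, Lyz2, Csf1r, Adgre1, Cd14 and Itgam among them. The list summed to 21.9 and 16.9 CPM in Vav1R63W replicates 2 and 3 and to 6.27 and 34.5 CPM in the pair labelled Themis1-deleted. Of 10 dendritic cell markers, 8 had 0 reads, Itgax, Flt3 and Xcr1 included, and the list summed to 41.2 and 22.2 CPM against 65.8 and 17.2 CPM. All 7 neutrophil markers had 0 reads. Among the B cell markers, Ms4a1, Pax5, Cd22 and Blk had 0 reads, while Ighm alone was at 1111 and 1234 CPM against 1274 and 1307 CPM. The groups of Ighm did not overlap, with the pair labelled Themis1-deleted higher, as for 15.1% of all tested genes. The B cell list without Ighm summed to 69.3 and 68.9 CPM against 37.9 and 62.8 CPM. The 8 genes of MHC class II presentation, the pathway that cathepsin S serves, summed to 118 and 249 CPM against 198 and 219 CPM, and H2-Eb1, H2-DMb2 and Ciita had 0 reads. Ighm and Ctss were thus both lowest in Vav1R63W replicate 2 and highest in the library labelled Themis1-deleted, replicate 3, and the part of B cell RNA in the Ctss values was not tested.

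The wider lysosome was read from 7 lists with 159 genes, of which 139 had enough reads to be tested and 16 had none. The edgeR test called 0 of the 139 (0 higher, 0 lower), and 6 had an unadjusted p under 0.05, beside 4.98% of all tested genes. The median difference in log2(CPM + 0.5) with TMM scaling was 0.01 over the 139 genes, with 70 positive and 69 negative, and -0.04 over all tested genes. For the 10 genes described above it was -0.04, with 4 positive and 6 negative. When replicate 3 alone stood for the pair labelled Themis1-deleted, the median was 0.02 for the 10 genes, -0.07 for the 139 and -0.05 for all tested genes. By list it was then -0.38 for other proteases, -0.07 for hydrolases, 0.12 for membrane proteins, 0.07 for V-ATPase subunits, 0.05 for delivery and -0.19 for TFEB and mTORC1 control. The authors' deposited table called 4 of the 126 lysosome genes with an adjusted p in it, beside 1.56% of all its genes: Atp6v1b2 (0.00628) and Man2b1 (0.0418) higher and Igf2r (0.0299) and Gusb (0.0335) lower. It rests on the same counts, so the overlap of those 4 with the small p-values of edgeR below is not independent.

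**Figure D4:**
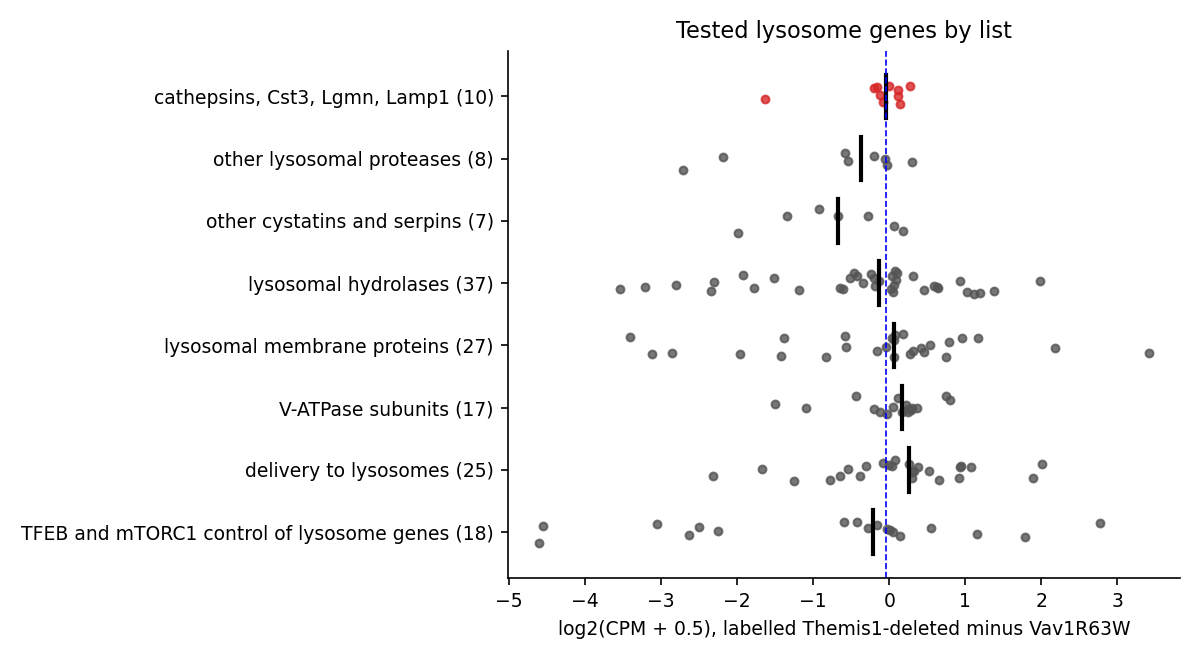
Difference in mean log2(CPM + 0.5), TMM-scaled, of each tested gene by list, with the list median as a black bar and the median of all tested genes (-0.04) as a dashed line. The 10 genes described here (red) lie close to 0 apart from Ctsl, while genes of the other lists spread to both sides.

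None of the remaining lysosomal proteases and inhibitors passed the edgeR test. Of 12 other proteases, 8 were tested and Ctsg, Ctsh, Ctsk and Napsa had 0 reads, and the 8 had a median log2 difference of -0.37 with 7 negative, where 52.4% of all tested genes were negative. Ctso, another papain-like protease, was at 137 and 148 CPM in Vav1R63W replicates 2 and 3 and at 91.6 and 101 CPM in the pair labelled Themis1-deleted (log2 fold change -0.54 ± 0.26, edgeR adjusted p = 1.000). Its groups did not overlap, with the pair labelled Themis1-deleted lower, as for 3 of these 8 genes and 18.7% of all tested genes. The fold change of Ctso was -0.46 with replicate 2 of the pair labelled Themis1-deleted left out. Dpp7, a dipeptidyl peptidase, had 240 and 322 reads against 164 and 5, with a log2 fold change of -1.89 ± 1.89 that was -5.71 with the same library left out. The 7 tested cystatins and serpins had a median of -0.68 with 5 negative. With replicate 2 alone standing for the pair labelled Themis1-deleted, 4 of the 7 were negative, and with replicate 3 alone 2 were, with a median of 0.13. Cst7, cystatin F, an inhibitor of cathepsin C, was at 123 and 104 CPM against 69.7 and 119 CPM, with a log2 fold change of -0.23 that became 0.12 with replicate 2 of the pair labelled Themis1-deleted left out. Serpinb6a, an intracellular serpin, had 393 and 686 reads against 666 and 21, with -0.81 ± 1.56 on the log2 scale and -4.61 with that library left out.

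Among the 37 tested hydrolases, 18 had a positive and 19 a negative difference, and the median was -0.14. Gusb, the beta-glucuronidase, was at 75.6 and 93.6 CPM in Vav1R63W replicates 2 and 3 and at 18.0 and 31.2 CPM in the pair labelled Themis1-deleted. Man2b1, the lysosomal alpha-mannosidase, was at 92.9 and 124 CPM against 184 and 286 CPM. The differences had opposite signs, -1.75 ± 0.52 for Gusb and 1.14 ± 0.35 for Man2b1 on the log2 scale, and neither passed (edgeR adjusted p = 0.900 for each). With replicate 2 of the pair labelled Themis1-deleted left out, they were -1.40 and 1.43. The 27 tested membrane proteins had 16 positive and 11 negative differences and a median of 0.07. Npc1, a cholesterol exporter, was at 27.6 and 48.3 CPM against 14.8 and 11.7 CPM, and Abcb9, a peptide transporter, at 58.8 and 78.8 CPM against 101 and 94.1 CPM (edgeR adjusted p = 1.000 for each). Their log2 fold changes were -1.503 ± 0.80 and 0.53 ± 0.34, and -1.66 and 0.49 with that library left out. Reads that another gene could claim were left out for Npc1, Abcb9 and Serpinb6a too, as in Vav1R63W replicate 2, where Npc1 had 387 unstranded reads against 529 over both strand columns.

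Subunits of the V-ATPase, the pump that acidifies lysosomes and so allows cathepsins to work, had 11 positive and 6 negative differences of 17 and a median of 0.17. Atp6v1b2 was at 131 and 140 CPM in Vav1R63W replicates 2 and 3 and at 249 and 217 CPM in the pair labelled Themis1-deleted, a log2 fold change of 0.80 ± 0.20 (edgeR adjusted p = 0.900) and of 0.72 without replicate 2 of the latter. Atp6v0e was at 511 and 555 CPM against 584 and 715 CPM (log2 0.31 ± 0.17, and 0.47 without that replicate 2). The groups did not overlap for either subunit, as for 3 of the 17 subunits in all and 33.8% of tested genes. Of the 25 tested genes of delivery to lysosomes, 15 were positive and 10 negative, with a median of 0.26. Igf2r, the large mannose 6-phosphate receptor that carries new hydrolases to endosomes, was at 321 and 374 CPM against 229 and 204 CPM (log2 -0.66 ± 0.18, edgeR adjusted p = 0.900, and -0.72 with replicate 2 of the pair labelled Themis1-deleted left out). Ap1b1, an adaptor subunit of the same route, was at 98.7 and 101 CPM against 122 and 290 CPM, and its log2 fold change of 1.08 ± 0.50 was 0.28 without replicate 3 of the pair labelled Themis1-deleted and 1.58 without replicate 2.

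The list of TFEB and mTORC1 control genes had 7 positive and 11 negative differences among 18 tested, with a median of -0.22. Mtor, the kinase that holds TFEB in the cytoplasm, had 178 and 181 reads in Vav1R63W replicates 2 and 3, against 0 and 1 in the pair labelled Themis1-deleted. Scaled by library totals, the summed reads were 378 times higher in the Vav1R63W pair (exact 95% interval 67.4 to 14977, counting error only). Mtor was the single lysosome gene called by DESeq2 (adjusted p = 0.0136), and edgeR did not call it (adjusted p = 0.900). Rptor, a partner of Mtor in the same complex, had 609 and 250 reads against 37 and 0. Its log2 fold change was -4.69 ± 2.55 (edgeR adjusted p = 1.000). The groups of Mtor and Rptor did not overlap, with the pair labelled Themis1-deleted lower, as for 6 of the 18 genes and 18.7% of all tested genes. Gaps of at least 10-fold between the libraries of a group were found for 6 of these 18 genes and for 20.8% of all tested genes. At a mean of 5 to 25 CPM, the range that holds Mtor and Rptor, they were found for 43.6% of 3159 tested genes.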

How the data were processed

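Per the labels' protocols, RNA of sorted cells was made into libraries with an Illumina TruSeq kit. Per the submitters' processing notes, Trim Galore trimmed the reads, STAR aligned them, and FastQC and MultiQC reported their quality, with versions not given in the sources used here. For annotation, the design text names Ensembl release 90 and the processing notes mm9, which are different mouse builds. Positions printed come from GENCODE M21 (GRCm38) by matching gene IDs and played no part in the counts; 52403 of 52636 IDs had a symbol.

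The deposited per-sample files give each gene's raw read counts in unstranded, first strand and second strand columns, as STAR lays them out. The deposited series table holds the same unstranded counts, equal in all 4 libraries, and the authors' comparison: linear fold (a ratio), its log2 value, and raw and adjusted p-values, made with DESeq2 per the design text. Unmapped, multimapping, unassigned and ambiguous reads (21.1% to 23.1%) were left out.

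Levels are CPM of library totals. The whole table was fitted with edgeR 4.0.16 (R 4.3.3): TMM, filterByExpr (minimum count 10, minimum total 15), robust quasi-likelihood F test, two-sided, no block, adjusted p under 0.05. Each standard error is the size of the log2 fold change over the root of its F statistic. DESeq2 1.42.0, limma-voom (limma 3.58.1), DESeq2 size factors, other filters, a replicate block, the strand column with more reads and leaving out each library were alternatives, and the fit was tested on simulated data. List medians use a pseudocount of 0.5 CPM. The genes and lists were chosen with earlier results of these data known. Named genes are the 10 genes, Themis, of each lysosome list the genes that passed, filled to 2 by smallest p, of each marker list the 2 highest and those at 0 reads, and the 3 nearest in pattern to the 2 of highest mean CPM. Genes that overlap a described gene, and proteases at 0 reads, were named after their values were seen. Some genes that the rule names are not reported here.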

Additional observations from a re-analysis of the deposited data

How the results depend on the processing

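Over the 11 alternatives, edgeR and limma-voom called 0 genes, 0 lysosome genes and 0 of the 10 genes in every fit, while DESeq2 called 206 genes and 1 lysosome gene (Mtor) and 0 of the 10; the cause was not tested. Leaving out each library gave 0 to 0 calls for all 3 counts. These fits leave 1 group with a single library, assumed to vary like the other group, and with 0 calls from all 4 libraries they say nothing of stability. With the replicate number as a block, edgeR called 0, 0 and 0. The deviations of same-numbered libraries from their group means correlated at 0.0181 over 10216 genes, with 2 pairs only, so the numbers are not taken to pair the libraries. The fold change kept its sign in all alternatives for 3 of the 10 genes, Ctss, Ctsd and Cst3. It changed sign for the other 7, in 1 alternative each for Ctsb, Ctsl, Ctsc, Ctsw and Lamp1, each time when a library was left out, in 4 for Lgmn and in 5 for Ctsz, whose value is near 0. Of 110 fold changes, 104 moved by less than the spread between libraries and 6 by more. In the strand column with more reads mean CPM was 138 for Ctsz and 405 for Lamp1, and the other 18 of 20 mean levels moved by less than the spread. Depth limits Ctsl and Lgmn most, at 15 and 49 reads in the thinnest library.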
